A study of Mus musculus with 24 samples.

Results

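The genes of the proteasome, the barrel-shaped protease that degrades ubiquitin-tagged proteins, were followed through RNA libraries of mouse CD4 T cells. Members were all rows of the deposited table whose Ensembl identifier maps, in GENCODE M21 on GRCm38, to a protein-coding gene named Psma to Psmg followed by a digit. There were 50 such genes among 46981 rows. A further 4 rows with such names were pseudogenes and were not counted. By role the members comprised 7 subunits of the alpha ring, 4 structural subunits of the beta ring, 3 constitutive catalytic subunits (Psmb5, Psmb6 and Psmb7) and 3 immunoproteasome subunits (Psmb8, Psmb9 and Psmb10). Psma8 of the testis and Psmb11 of the thymus are the 2 tissue-restricted core subunits. The regulatory particle had 9 base and 8 lid genes, and there were 6 genes of activators and an inhibitor and 7 of assembly chaperones. Psmc3ip, a meiotic recombination factor, carries the name without being a subunit.

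The study compared T cells deficient in either of 2 enzymes that make acetyl-CoA with wild-type (WT) cells, each enzyme in a cohort of its own. In the Acly cohort, knockout (KO) cells carried CD4-Cre and Aclyfl/fl, so that Cre under the Cd4 promoter deletes ATP citrate lyase in T cells. In the Pdha1 cohort, KO cells were Pdha1fl/fl CD4CreERT2, in which tamoxifen switches on the Cre that deletes a pyruvate dehydrogenase subunit; the labels give neither a schedule for its induction nor the alleles of the WT animals. Cells of each genotype were either activated through CD3 and CD28 for 24 h or left untreated, here called resting, in medium with 15% serum and 2 mM glutamine. This gave 8 groups of 3 libraries. No source used here gives the ages of the animals. Nothing in the labels ties replicates to different animals, and p-values thus reflect only how these samples varied, which may be technical.

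The core particle stacks outer rings of alpha subunits around inner rings of beta subunits, and Psmb5, Psmb6 and Psmb7 supply its cutting sites. In cells exposed to interferon, and in lymphocytes more generally, Psmb8, Psmb9 and Psmb10 take their places and shift cleavage toward peptides that bind MHC class I. The base unfolds substrates with its ATPases, the lid removes ubiquitin, and Psme proteins open the core as alternative caps. T cells that leave rest enlarge and divide within days, with high rates of protein synthesis and turnover.

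Values are RPM, reads per 1000000 assigned to genes in a library, and are not divided by gene length, so levels are compared between groups and not between genes. Whole counts could be recovered from the values and, corrected for collisions as described under processing, are here called reads. Libraries held 438709 to 1475822 of them, so that 1 read was worth 0.677 to 2.28 RPM. A count of 0 allows up to 3 reads, or 2.03 to 6.83 RPM by library, and this floor covers counting error only. Between 8 and 16 members lay at or under 3 reads in resting libraries of the Acly cohort, against 0 to 1 in activated ones. Protein-coding genes took 70.9% to 74.8% of RPM in activated and 49.1% to 55.1% in resting libraries of this cohort. In this and later shares, and in scaling to protein-coding genes, the receptor genes described next were left out. Olfactory and vomeronasal receptor genes (1683 genes), families that serve smell and here gauge background, summed to 30101 to 40961 RPM in activated and 95328 to 109574 RPM in resting ones. Acly itself stood at 11.3, 10.6 and 15.0 RPM in activated KO libraries and 104, 111 and 109 RPM in activated WT libraries, without overlap. Its log2 change was −3.10 ± 0.44 (limma, adjusted p = 0.000429; adjusted p = 0.426 without trend and robust).

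Libraries of the Pdha1 cohort did not all match their labels. Receptor genes summed to 66285 RPM in the library labelled KO resting 3, against 103460 to 108359 RPM in the other 5 resting libraries. They summed to 26381, 72243 and 105373 RPM in WT activated 1, 2 and 3. Activated KO libraries lay at 75402 to 89323 RPM. With both libraries set aside, the one labelled KO resting 3 lay within the range of the activated libraries. The one labelled WT activated 3 lay within the range of the resting libraries. Pdha1 stood at 30.4, 27.4 and 19.996 RPM in activated KO and 84.7, 40.8 and 5.35 RPM in activated WT libraries, against 7.33, 0 and 25.9 RPM in resting KO and 6.78, 3.14 and 6.01 RPM in resting WT libraries, and did not separate the genotypes. Where in the transcript reads fell is not known, so this gene does not check the deletion. CD4 T cell markers (8 genes, all detected in every group) summed to 1547 to 2384 RPM in activated and 374 to 735 RPM in resting Acly libraries, and to 280 to 1449 RPM and 158 to 937 RPM in the Pdha1 cohort. Erythroid and platelet markers summed to at most 686 RPM in the Acly cohort and reached 19206 RPM in the Pdha1 cohort. Markers of B cells, of CD8 and NK cells and of myeloid cells each summed to 82.7 RPM or less in every library. Of these lists, Cd79b, Ncr1, Cd14, Lyz2, Alas2 and Pf4 were at 0 throughout at least 1 group. In such bulk samples, fewer cells of a type and less RNA per cell cannot be told apart.

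Promoters are shown for genes that the results turn on: the paired catalytic subunits Psmb5 and Psmb8, Psmb6 and Psmb9, and the activators Psme1 and Psme3. The sequences are RefSeq, build GRCm38.p6, 300 bases from 250 before to 50 after the annotated start, written 5′ to 3′ on the strand of the gene. Capitals mark letters that match, on either strand, an antioxidant response element (TGACNNNGC), an interferon-stimulated response element (GAAA, any 2 bases, GAAA), a gamma-activated site (TTCNNNGAA) or an ETS motif (CCGGAAG). The NFE2L1 factor is known to act on proteasome genes through the antioxidant element, and interferons act through interferon-stimulated elements and gamma-activated sites. Positions are Psmb5 chr14:54617946-54618245 (minus strand), Psmb6 chr11:70525107-70525406 (plus strand), Psmb8 chr17:34197945-34198244 (plus strand), Psmb9 chr17:34187281-34187580 (minus strand), Psme1 chr14:55578244-55578543 (plus strand) and Psme3 chr11:101315963-101316262 (plus strand).
Psmb5: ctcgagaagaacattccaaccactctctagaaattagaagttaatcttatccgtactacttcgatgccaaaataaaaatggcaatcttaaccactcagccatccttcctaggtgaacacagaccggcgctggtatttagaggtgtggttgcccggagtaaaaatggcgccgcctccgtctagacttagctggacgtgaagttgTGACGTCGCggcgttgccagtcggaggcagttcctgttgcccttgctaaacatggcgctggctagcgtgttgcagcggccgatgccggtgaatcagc
Psmb8: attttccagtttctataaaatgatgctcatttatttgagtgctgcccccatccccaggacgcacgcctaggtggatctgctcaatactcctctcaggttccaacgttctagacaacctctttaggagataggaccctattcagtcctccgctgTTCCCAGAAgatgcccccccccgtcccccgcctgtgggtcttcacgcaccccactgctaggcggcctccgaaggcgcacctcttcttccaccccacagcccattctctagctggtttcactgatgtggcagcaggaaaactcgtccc
Psmb6: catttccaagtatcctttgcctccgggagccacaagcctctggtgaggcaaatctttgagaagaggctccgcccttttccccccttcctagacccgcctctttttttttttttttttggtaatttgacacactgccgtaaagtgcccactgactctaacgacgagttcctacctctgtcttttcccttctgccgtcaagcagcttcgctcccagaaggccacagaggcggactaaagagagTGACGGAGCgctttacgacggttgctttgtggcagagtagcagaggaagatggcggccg
Psmb9: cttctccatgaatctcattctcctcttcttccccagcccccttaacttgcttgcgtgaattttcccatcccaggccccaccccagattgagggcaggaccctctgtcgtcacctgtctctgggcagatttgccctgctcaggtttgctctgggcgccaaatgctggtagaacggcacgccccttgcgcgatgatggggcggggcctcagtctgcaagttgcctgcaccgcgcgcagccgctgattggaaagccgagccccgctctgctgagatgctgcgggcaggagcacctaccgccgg
Psme1: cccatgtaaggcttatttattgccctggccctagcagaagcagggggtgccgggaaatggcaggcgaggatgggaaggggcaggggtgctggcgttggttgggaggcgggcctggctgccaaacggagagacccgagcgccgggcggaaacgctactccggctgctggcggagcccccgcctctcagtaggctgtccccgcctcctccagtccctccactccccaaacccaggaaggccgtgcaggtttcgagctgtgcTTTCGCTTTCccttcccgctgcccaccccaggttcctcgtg
Psme3: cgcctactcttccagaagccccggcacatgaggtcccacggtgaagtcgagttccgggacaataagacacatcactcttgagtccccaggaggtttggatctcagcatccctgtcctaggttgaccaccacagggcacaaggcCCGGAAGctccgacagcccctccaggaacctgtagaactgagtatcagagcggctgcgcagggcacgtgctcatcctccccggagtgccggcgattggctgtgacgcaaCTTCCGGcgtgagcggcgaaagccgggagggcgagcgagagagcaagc

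Of the 50 members, 42 matched a RefSeq promoter. Psmb5 and Psmb6 each held an antioxidant response match, at 47 and 9 bases before the start, and Psmb8 held a gamma-activated match at 97 bases before it. Psme1 held an interferon-stimulated match 10 bases into the transcript, Psme3 held 2 ETS matches, and the Psmb9 window held none of the 4 motifs. The antioxidant response letters occurred in 6 of the 42 members (14.3%), against 14.0% of 27025 genes with a promoter. The interferon-stimulated letters occurred in 5 (11.9%, against 3.99% of all), the gamma-activated letters in 3 (7.14%, against 9.55%) and CCAAT in 15 (35.7%, against 41.1%). The ETS letters occurred in 15 members (35.7%, against 9.93% of all genes). No match overlapped a match of another motif, and in Psmd14 a pair of CCAAT matches on opposite strands overlapped. A match describes letters in the window and is not a mapped site. In GENCODE M21, Psmb8, Psmb9 and Psme1 begin further upstream, at chr17:34197721, chr17:34187764 and chr14:55578123. Those positions lie outside the windows and were not searched.

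The summed level of proteasome genes separated activated from resting cells in the Acly cohort. Summed over the 50 members, levels were 6592, 6017 and 6199 RPM in activated KO and 7535, 7669 and 6681 RPM in activated WT libraries, against 987, 896 and 1056 RPM in resting KO and 1050, 1029 and 968 RPM in resting WT libraries. Activated and resting libraries did not overlap. As a percentage of the RPM of protein-coding genes, members took 0.806% to 1.03% in activated and 0.175% to 0.215% in resting libraries, again without overlap. In the Pdha1 cohort the sums were 3283, 3004 and 2327 RPM in activated KO and 6618, 3954 and 913 RPM in activated WT libraries, against 997, 875 and 3594 RPM in resting KO and 932, 821 and 1101 RPM in resting WT libraries. The activated sums of that cohort overlapped the resting ones through the 2 libraries that stood apart. Leaving these out, sums were 2327 to 6618 RPM in activated and 821 to 1101 RPM in resting libraries.

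**Figure D1:**
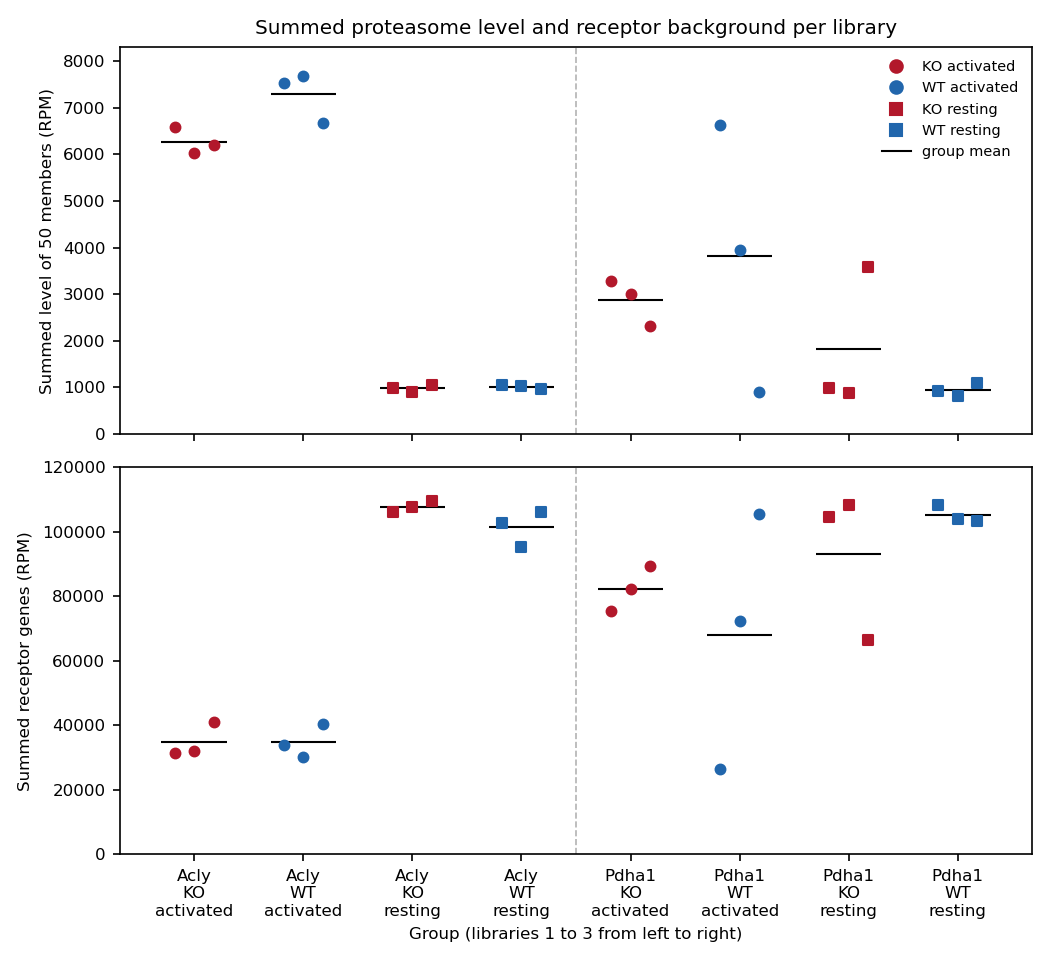
Summed RPM of the 50 members (top) and of 1683 receptor genes (bottom) in each library, by cohort, state and genotype, with lines at group means. Acly activated libraries lie at 6017 to 7669 RPM and Acly resting libraries at 896 to 1056 RPM; in the Pdha1 cohort KO resting 3 (3594 RPM) and WT activated 3 (913 RPM) lie with the other state.

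All 50 members passed the filter on low values in both cohorts. In activated against resting KO cells of the Acly cohort, 44 members rose and 3 fell past the threshold (limma on log2(RPM + 0.5), Benjamini-Hochberg adjusted p under 0.05). Over all 31311 genes tested, 20.7% rose and 26.7% fell. In WT cells 44 rose and 1 fell, against 21.4% and 23.8% of all genes. The median log2 change of members was 3.69 in KO cells, against −0.67 over all genes, and 3.66 in WT cells, against −0.61. All activated libraries lay above all resting ones for 44 members in KO cells (22.6% of all genes) and 45 in WT cells (23.1%), and all lay below for 4 (33.2%) and 1 (28.8%). Of the risers, 43 were shared by the genotypes, Psmd10 passed only in KO and Psme4 only in WT cells in this fit, and the difference between genotypes was called for neither. The comparisons are relative to the RPM total, whose make-up differed between states as given above, and the part of this in the changes was not tested. Scaled to protein-coding genes alone, the member median was 3.23 in WT cells, against −0.95 over all genes.

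**Figure D2:**
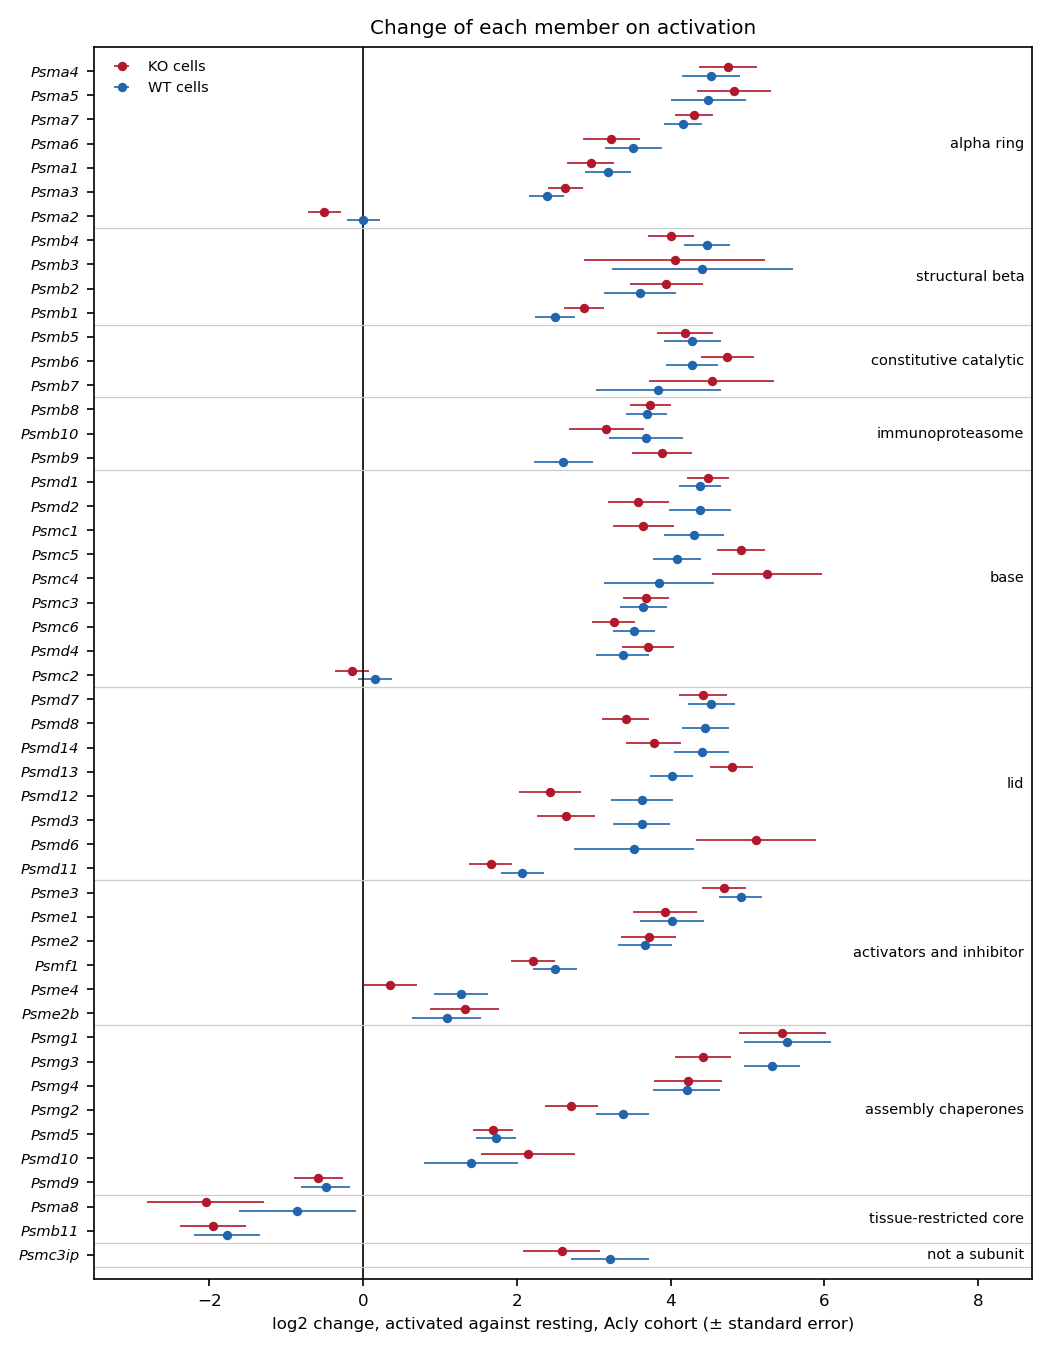
Log2 change of each member in activated against resting cells of the Acly cohort (horizontal axis, points with standard errors), in KO and WT cells, grouped by role. Most members lie between 2 and 5, while Psma2, Psmc2, Psmd9, Psma8 and Psmb11 lie near or below 0.

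In the alpha ring, which gates the core, 6 of 7 genes rose in both genotypes, with a median log2 change of 3.23 in KO and 3.51 in WT cells. Psma7 stood at 436, 315 and 384 RPM in activated KO and 413, 385 and 357 RPM in activated WT libraries, against 18.3, 16.0 and 21.5 RPM in resting KO and 24.4, 19.8 and 19.4 RPM in resting WT libraries. For Psma7 the log2 change was 4.31 ± 0.25 in KO (limma, adjusted p = 6.28e-18) and 4.16 ± 0.25 in WT cells (adjusted p = 1.88e-17). Every activated library lay above every resting one. Psma4 had the largest estimate in WT cells (4.53 ± 0.38) and Psma5 in KO cells (4.83 ± 0.49), while Psma3 had the smallest among the 6 (2.63 ± 0.23 in KO and 2.39 ± 0.23 in WT). Psma2 was the exception and is described below.

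The 4 structural beta subunits, which complete the inner rings without cutting sites of their own, rose in both genotypes. Psmb4 stood at 273, 274 and 261 RPM in activated KO and 276, 279 and 299.9 RPM in activated WT libraries, against 12.6, 18.1 and 18.9 RPM in resting KO and 10.4, 24.0 and 7.45 RPM in resting WT libraries. For Psmb4 the log2 change was 4.0 ± 0.30 in KO (limma, adjusted p = 1.61e-14) and 4.47 ± 0.30 in WT cells (adjusted p = 7.49e-16). Its activated and resting libraries were far apart. Psmb1 had log2 changes of 2.88 ± 0.26 in KO and 2.50 ± 0.26 in WT cells, and Psmb2 of 3.94 ± 0.47 and 3.60 ± 0.47. Psmb3 was the most variable, at 4.05 ± 1.18 in KO cells (limma, adjusted p = 0.0212). Leaving out KO activated 1 or 3 or KO resting 1 or 2 took that call away.

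The 3 constitutive catalytic genes rose in both genotypes, with medians of 4.53 in KO and 4.28 in WT cells. Psmb5, the chymotrypsin-like subunit, stood at 247, 185 and 230.4 RPM in activated KO and 354, 264 and 298 RPM in activated WT libraries, against 16.0, 8.52 and 11.4 RPM in resting KO and 22.1, 25.4 and 5.96 RPM in resting WT libraries. For Psmb5 the log2 change was 4.19 ± 0.37 in KO (limma, adjusted p = 5.89e-10) and 4.28 ± 0.37 in WT cells (adjusted p = 4.12e-10). Activated libraries of both genotypes lay far above the resting range. Psmb6, the caspase-like subunit, stood at 137, 120.1 and 125 RPM in activated KO and 146, 141 and 117 RPM in activated WT libraries, against 5.71, 5.32 and 2.52 RPM in resting KO and 10.4, 4.23 and 5.96 RPM in resting WT libraries. For Psmb6 the log2 change was 4.74 ± 0.34 in KO (limma, adjusted p = 5.81e-15) and 4.28 ± 0.34 in WT cells (adjusted p = 1.26e-13). KO and WT values ran together within each state. Psmb7, the trypsin-like subunit, stood at 99.7, 127 and 99.4 RPM in activated KO and 138, 119.7 and 85.5 RPM in activated WT libraries, against 5.71, 1.06 and 10.1 RPM in resting KO and 2.32, 21.2 and 7.45 RPM in resting WT libraries. For Psmb7 the log2 change was 4.53 ± 0.81 in KO (limma, adjusted p = 0.00140) and 3.84 ± 0.81 in WT cells (adjusted p = 0.00384). All 3 separated the states completely, and their resting values lay near the floor of 3 reads in several libraries.

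The immunoproteasome genes also rose in both genotypes, with medians of 3.74 in KO and 3.68 in WT cells. Psmb8, which replaces Psmb5, stood at 241, 281 and 212 RPM in activated KO and 393, 392 and 293 RPM in activated WT libraries, against 22.9, 13.9 and 17.7 RPM in resting KO and 27.9, 36.8 and 19.4 RPM in resting WT libraries. For Psmb8 the log2 change was 3.74 ± 0.27 in KO (limma, adjusted p = 4.82e-15) and 3.69 ± 0.27 in WT cells (adjusted p = 7.77e-15). Within the activated state all KO libraries lay below all WT libraries. Psmb9, which replaces Psmb6, stood at 61.8, 60.4 and 41.9 RPM in activated KO and 48.1, 52.5 and 37.2 RPM in activated WT libraries, against 5.71, 2.13 and 2.52 RPM in resting KO and 6.96, 5.64 and 8.94 RPM in resting WT libraries. For Psmb9 the log2 change was 3.89 ± 0.39 in KO (limma, adjusted p = 4.47e-11) and 2.60 ± 0.39 in WT cells (adjusted p = 5.13e-07). Resting KO values lay mostly below resting WT values, and activated ones overlapped. Psmb10, which replaces Psmb7, stood at 25.8, 24.8 and 35.4 RPM in activated KO and 35.0, 31.7 and 28.3 RPM in activated WT libraries, against 4.57, 3.19 and 1.26 RPM in resting KO and 1.16, 4.23 and 1.49 RPM in resting WT libraries. For Psmb10 the log2 change was 3.17 ± 0.48 in KO (limma, adjusted p = 9.72e-07) and 3.68 ± 0.48 in WT cells (adjusted p = 4.26e-08). States did not overlap for any of the 3. Psmb8 and Psmb9 lie beside the peptide transporter genes in the MHC region of chromosome 17. Psmb9 overlaps Tap1 on the opposite strand and Psmb8 overlaps the antisense gene Gm20496, and no source used here gives the counting strand. Of the constitutive counterparts, Psmb7 overlaps Nek6 on the opposite strand and Psmb5 overlaps the microRNA gene Mir686 on its own strand.

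Between the catalytic pairs, the immunoproteasome genes took a smaller share in activated than in resting libraries, with a narrow overlap and no test. The summed RPM of the 3 immunoproteasome genes divided by that of the 3 constitutive genes was 0.678, 0.847 and 0.637 in activated KO and 0.747, 0.908 and 0.716 in activated WT libraries, against 1.21, 1.29 and 0.895 in resting KO and 1.03, 0.917 and 1.54 in resting WT libraries. The overlap came from 2 libraries, as the highest activated value (0.908 in WT) exceeded the lowest resting one (0.895 in KO). As a share of the reads of all 6 genes, immunoproteasome reads were 38.9% to 45.9% in activated KO and 41.7% to 47.6% in activated WT libraries, against 47.2% to 56.2% in resting KO and 47.8% to 60.6% in resting WT libraries. Resting shares rest on few reads: 29 immunoproteasome reads against 24 constitutive ones in KO resting 1 give 54.7% with an exact 95% binomial interval of 40.4% to 68.4%, while 435 and 642 reads in KO activated 1 give 40.4% (37.4% to 43.4%). These intervals cover counting error only. By pair, Psmb9 over Psmb6 was 0.450, 0.503 and 0.336 in activated KO and 0.329, 0.372 and 0.317 in activated WT libraries, against 1.00, 0.400 and 1.00 in resting KO and 0.666, 1.33 and 1.5 in resting WT libraries. Activated values overlapped the resting range only through KO resting 2. The other pairs overlapped more widely between states. Psmb8 over Psmb5 was 0.922 to 1.52 in activated and 1.26 to 3.25 in resting libraries. Psmb10 over Psmb7 was 0.194 to 0.356 in activated and 0.125 to 3.00 in resting libraries, and KO resting 3, WT resting 2 and WT resting 3 lay at the low end, at 0.125, 0.1997 and 0.1999. In the Pdha1 cohort the ratio over the 3 pairs was 0.731, 0.719 and 0.826 in activated KO and 0.560, 0.714 and 2.14 in activated WT libraries, against 1.37, 1.40 and 0.836 in resting KO and 1.59, 1.17 and 1.69 in resting WT libraries. There, too, the 2 libraries that stood apart went with the other state, at 0.836 in KO resting 3 and 2.14 in WT activated 3. Without them the ratio was 0.560 to 0.826 in activated and 1.17 to 1.69 in resting libraries.

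**Figure D3:**
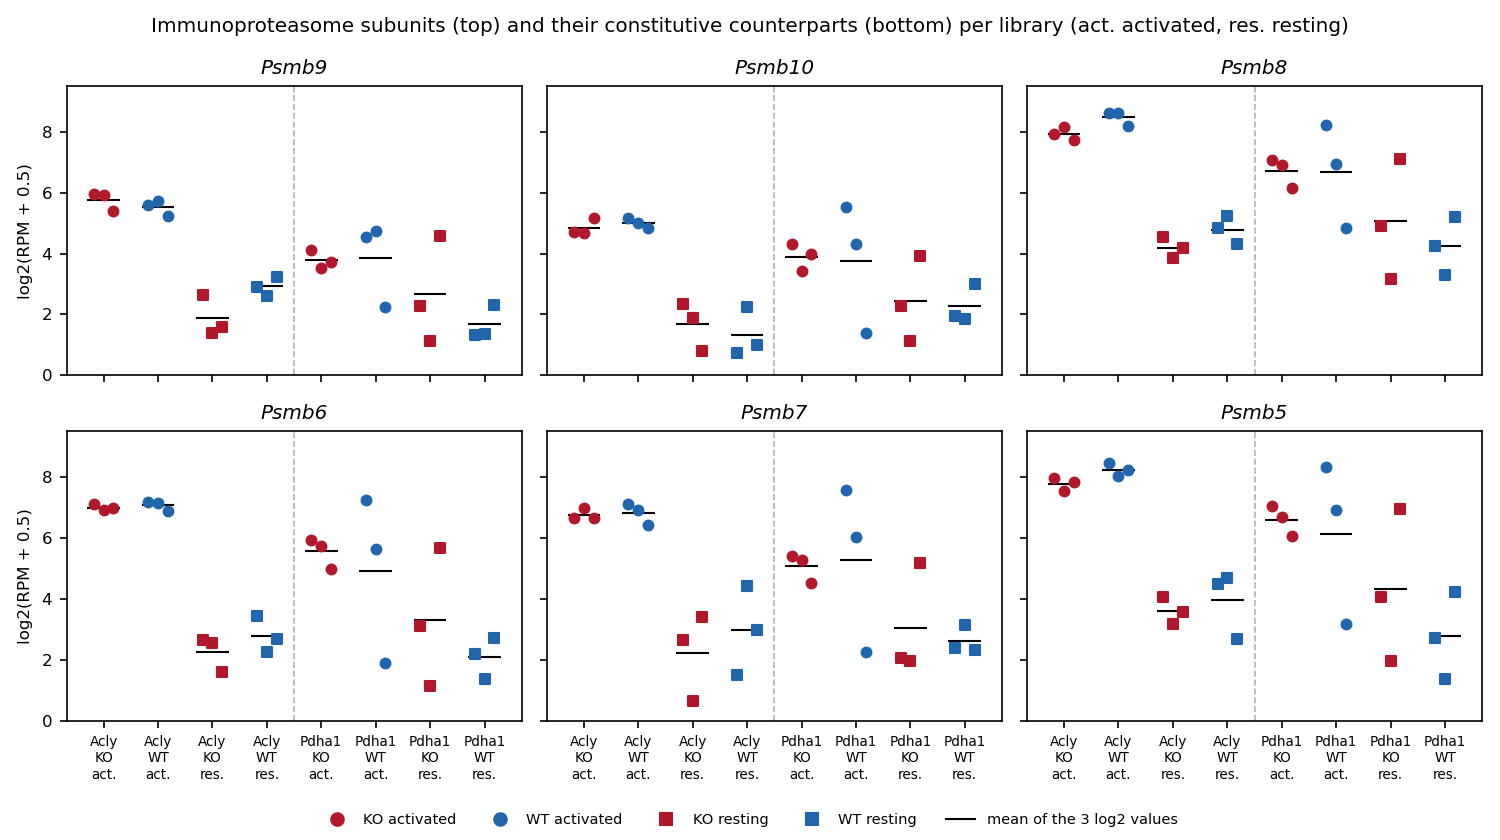
log2(RPM + 0.5) of the immunoproteasome genes Psmb8, Psmb9 and Psmb10 (top) and of Psmb5, Psmb6 and Psmb7 (bottom) in each library, with lines at the mean of the 3 log2 values. In the Acly cohort the states separate for all 6 genes; in the Pdha1 cohort KO resting 3 and WT activated 3 cross over.

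Of the 9 base genes, 8 rose in both genotypes, with medians of 3.68 in KO and 3.85 in WT cells. Psmd1, a large scaffold of the base, stood at 334, 336 and 358 RPM in activated KO and 558, 434 and 275 RPM in activated WT libraries, against 11.4, 13.9 and 20.2 RPM in resting KO and 24.4, 16.9 and 16.4 RPM in resting WT libraries. For Psmd1 the log2 change was 4.49 ± 0.27 in KO (limma, adjusted p = 4.56e-17) and 4.38 ± 0.27 in WT cells (adjusted p = 9.81e-17). WT activated 3 was the lowest activated library and still far above every resting one. Psmd1 overlaps Gm21972 on its own strand, so its reads may be shared with that gene. Psmc5, an ATPase, had changes of 4.91 ± 0.31 and 4.08 ± 0.31 in KO and WT cells, and the ATPase Psmc4 of 5.25 ± 0.72 and 3.85 ± 0.72. The ATPase Psmc2 was not called.

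All 8 lid genes rose in both genotypes, with medians of 3.60 in KO and 3.82 in WT cells. Psmd13 stood at 332, 252 and 299.6 RPM in activated KO and 320.2, 384 and 357 RPM in activated WT libraries, against 12.6, 10.7 and 7.57 RPM in resting KO and 23.2, 31.1 and 13.4 RPM in resting WT libraries. For Psmd13 the log2 change was 4.80 ± 0.28 in KO (limma, adjusted p = 1.25e-17) and 4.01 ± 0.28 in WT cells (adjusted p = 2.67e-15). States did not overlap, and resting KO libraries lay below resting WT ones. Psmd13 overlaps Sirt3 on the opposite strand. Psmd7, partner of the deubiquitinase, stood at 122, 128 and 126 RPM in activated KO and 154, 167 and 133 RPM in activated WT libraries, against 4.57, 5.32 and 6.30 RPM in resting KO and 6.96, 7.05 and 4.47 RPM in resting WT libraries. For Psmd7 the log2 change was 4.42 ± 0.31 in KO (limma, adjusted p = 2.49e-15) and 4.53 ± 0.31 in WT cells (adjusted p = 1.42e-15). Psmd14, the deubiquitinase itself, changed by 3.78 ± 0.36 in KO and 4.40 ± 0.36 in WT cells. Psmd11 had the smallest lid estimates, 1.66 ± 0.28 and 2.07 ± 0.28. Summed base and lid RPM over summed core RPM was 0.814, 0.798 and 0.877 in activated KO and 0.874, 0.946 and 0.852 in activated WT libraries, against 0.872, 0.798 and 0.610 in resting KO and 0.807, 0.719 and 0.655 in resting WT libraries, and the states overlapped.

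Among activators and the inhibitor, 5 of 6 genes rose in KO and 6 of 6 in WT cells. Psme1, which forms the interferon-inducible cap with Psme2, stood at 183, 164 and 162 RPM in activated KO and 189, 157 and 144 RPM in activated WT libraries, against 12.6, 9.58 and 10.1 RPM in resting KO and 16.3, 16.9 and 2.98 RPM in resting WT libraries. For Psme1 the log2 change was 3.93 ± 0.41 in KO (limma, adjusted p = 5.65e-08) and 4.01 ± 0.41 in WT cells (adjusted p = 3.96e-08). KO and WT libraries overlapped in both states. Psme2 stood at 77.2, 73.9 and 63.5 RPM in activated KO and 67.3, 74.2 and 63.9 RPM in activated WT libraries, against 4.57, 5.32 and 5.04 RPM in resting KO and 6.96, 2.82 and 5.96 RPM in resting WT libraries. For Psme2 the log2 change was 3.71 ± 0.35 in KO (limma, adjusted p = 1.66e-11) and 3.67 ± 0.35 in WT cells (adjusted p = 2.62e-11). States did not overlap for either partner. Psme1 overlaps Emc9 on the other strand, and Psme2b is a near-copy of Psme2, so that reads could be split between them.

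Psme3, the nuclear cap of the core, had the smallest p of any member in WT cells. It stood at 339.5, 326 and 383 RPM in activated KO and 456, 567 and 469 RPM in activated WT libraries, against 11.4, 13.9 and 13.9 RPM in resting KO and 26.7, 16.9 and 8.94 RPM in resting WT libraries. For Psme3 the log2 change was 4.69 ± 0.28 in KO (limma, adjusted p = 2.94e-17) and 4.91 ± 0.28 in WT cells (adjusted p = 7.52e-18). All activated KO libraries lay below all activated WT libraries. Psme4, a cap linked to histone degradation, stood at 15.9, 23.0 and 25.7 RPM in activated KO and 40.1, 29.3 and 25.6 RPM in activated WT libraries, against 16.0, 18.1 and 15.1 RPM in resting KO and 15.1, 9.87 and 13.4 RPM in resting WT libraries. For Psme4 the log2 change was 0.36 ± 0.35 in KO (limma, adjusted p = 0.406) and 1.27 ± 0.35 in WT cells (adjusted p = 0.00304). Resting and activated KO libraries overlapped, WT libraries did not. The KO estimate was 0.86 under TMM scaling, where it passed the test, and was −0.17 when scaled to protein-coding genes. That scaling also ended the WT call (0.80; limma, adjusted p = 0.0647). The interaction of genotype and activation for Psme4 was −0.91 ± 0.49 (limma, adjusted p = 1.00). Psmf1, the inhibitor of the core, changed by 2.21 ± 0.29 in KO and 2.50 ± 0.29 in WT cells. Psme2b changed by 1.32 ± 0.45 and 1.09 ± 0.45, near the threshold (limma, adjusted p = 0.0149 and 0.0454). The WT call for Psme2b was lost without any of KO activated 1, 2 or 3, WT activated 2 or 3 and WT resting 2 or 3, and the KO call without KO activated 3 or KO resting 2.

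Of the assembly chaperones, which pair and order subunits before a proteasome closes, 6 of 7 rose in KO and 5 of 7 in WT cells. Psmg1 and Psmg3 had few resting reads. Psmg1 stood at 52.5, 55.1 and 65.7 RPM in activated KO and 67.3, 63.7 and 60.3 RPM in activated WT libraries, against 0, 2.13 and 1.26 RPM in resting KO and 1.16, 2.82 and 0 RPM in resting WT libraries. Over the WT libraries 218 activated and 3 resting reads gave a ratio of RPM of 47.9, with a 95% counting interval of 16.2 to 234. Psmg3 stood at 94.3, 88.3 and 92.9 RPM in activated KO and 99.9, 130.4 and 92.7 RPM in activated WT libraries, against 4.57, 3.19 and 3.78 RPM in resting KO and 1.16, 2.82 and 2.98 RPM in resting WT libraries. Its WT ratio was 48.7 (20.7 to 151), from 370 and 5 reads. Both separated the states. Psmg3 overlaps another annotated gene on its own strand. Psmd5, a chaperone of the base, stood at 96.6, 110.0 and 127 RPM in activated KO and 119, 144 and 116 RPM in activated WT libraries, against 30.9, 29.9 and 41.7 RPM in resting KO and 37.2, 38.2 and 37.3 RPM in resting WT libraries. For Psmd5 the log2 change was 1.69 ± 0.26 in KO (limma, adjusted p = 8.97e-07) and 1.73 ± 0.26 in WT cells (adjusted p = 5.74e-07). Psmd10 changed by 2.14 ± 0.61 in KO cells (limma, adjusted p = 0.00392) and had an estimate of 1.41 ± 0.61 in WT cells (adjusted p = 0.0563). The WT estimate passed the test in 10 of 24 alternatives, among them TMM scaling, edgeR, DESeq2 and without WT activated 2 or WT resting 3. Psmc3ip, which is no subunit, rose too, by 2.58 ± 0.50 and 3.21 ± 0.50.

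A few members stayed outside the common rise. Psma2, of the alpha ring, stood at 169.9, 173 and 154 RPM in activated KO and 212, 202 and 195 RPM in activated WT libraries, against 213, 223 and 274 RPM in resting KO and 184, 180.3 and 249 RPM in resting WT libraries. For Psma2 the log2 change was −0.50 ± 0.21 in KO (limma, adjusted p = 0.0490) and 0.00 ± 0.21 in WT cells (adjusted p = 0.995). The KO call was lost in 14 of 24 alternatives, among them without any 1 of the 6 KO libraries or WT activated 1 or 2, and in 3 of these (TMM scaling, edgeR and DESeq2) the estimate was above 0. Psmc2 stood at 145, 153 and 140.1 RPM in activated KO and 189, 167 and 158 RPM in activated WT libraries, against 207, 155 and 130.1 RPM in resting KO and 163, 147 and 149 RPM in resting WT libraries. Its log2 change was −0.14 ± 0.22 in KO and 0.16 ± 0.22 in WT cells, neither called, and its sign also depended on scaling. For Psma2 the states overlapped in WT and not in KO libraries, and for Psmc2 they overlapped in both. Psmd9, a chaperone of the base, stood at 30.3, 21.2 and 24.6 RPM in activated KO and 33.0, 30.1 and 21.2 RPM in activated WT libraries, against 32.1, 40.6 and 41.7 RPM in resting KO and 44.3, 25.4 and 52.3 RPM in resting WT libraries. Its estimates were −0.58 ± 0.32 in KO and −0.49 ± 0.32 in WT cells, neither called. Psmd9 overlaps another annotated gene on the opposite strand.

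Psmb11, which the thymic cortex is known to use, fell. It stood at 6.04, 5.29 and 17.1 RPM in activated KO and 6.98, 6.32 and 18.5 RPM in activated WT libraries, against 41.3, 21.3 and 41.7 RPM in resting KO and 29.1, 28.2 and 44.8 RPM in resting WT libraries. For Psmb11 the log2 change was −1.95 ± 0.43 in KO (limma, adjusted p = 0.000267) and −1.77 ± 0.43 in WT cells (adjusted p = 0.000844). Activated libraries lay below resting ones in both genotypes. Psma8 stood at or near the floor, with 0.755, 0 and 0 RPM in activated KO and 0.997, 0.789 and 3.52 RPM in activated WT libraries, against 2.28, 2.13 and 2.52 RPM in resting KO and 3.48, 2.82 and 2.98 RPM in resting WT libraries, and no more than 7 reads over the libraries of a group. Its KO estimate of −2.05 ± 0.76 passed the test (limma, adjusted p = 0.0247) and failed in 8 of 23 alternatives, among them without KO activated 2 or 3 or KO resting 1 or 3.

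Psma2, Psmc2, Psmd9 and Psmb11, grouped after their values were seen, summed to 336 to 440 RPM in activated and 381 to 495 RPM in resting Acly libraries. The other 46 members summed to 5665 to 7264 RPM and 456 to 648 RPM. The 4 genes thus made up 5.28% to 5.89% of member RPM in activated and 37.0% to 51.2% in resting libraries. Across the 12 Acly libraries, Pearson's r of log2 level with log2 summed receptor RPM was 0.91 for Psmb11, 0.65 for Psmd9, 0.55 for Psma2 and −0.06 for Psmc2, while the median of members was −0.96. In the Pdha1 cohort it was 0.92, 0.93, 0.25 and −0.56, with a median of −0.75. These points share libraries and their depth, fall into states, and are given as a description. The part of background reads in the values of these 4 genes was not tested.

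**Figure D4:**
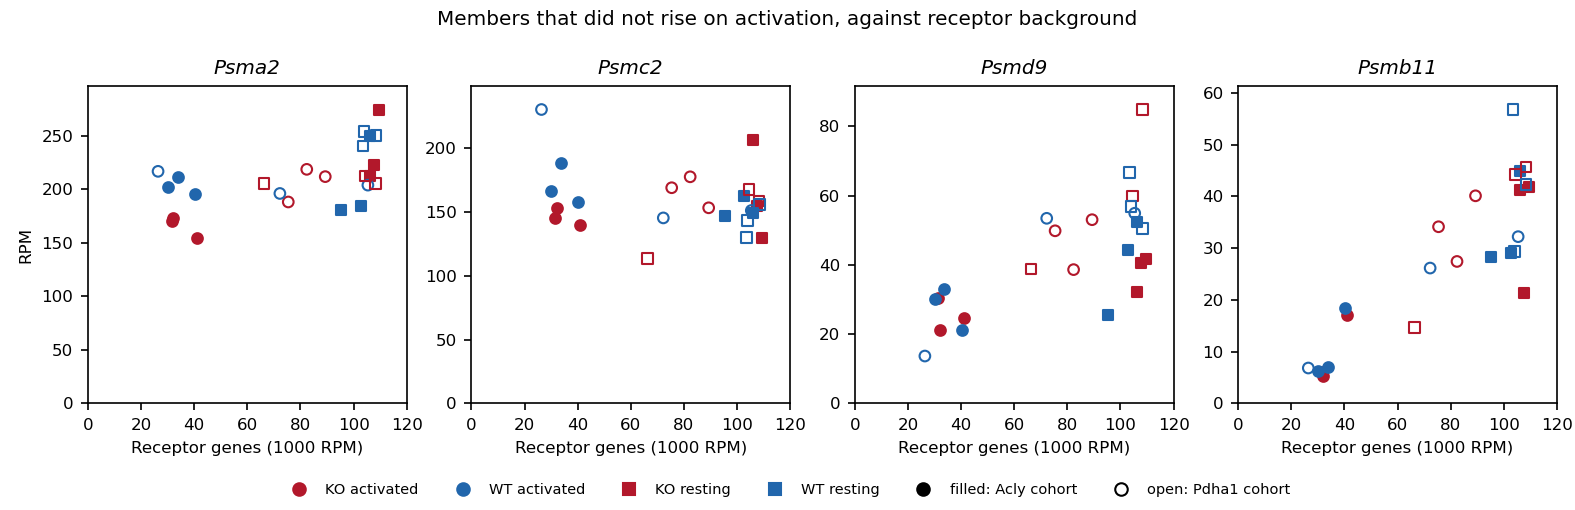
RPM of Psma2, Psmc2, Psmd9 and Psmb11 (vertical axis) against the summed RPM of receptor genes in units of 1000 RPM (horizontal axis), 1 point per library, filled for the Acly and open for the Pdha1 cohort. Psmb11 is low where receptor RPM is low, while Psma2 stays at 154 to 274 RPM in every library.

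Genes that work with the proteasome moved alongside. Of 9 proteasome-associated genes tested (2 of the 11 listed were not matched), 8 rose in KO and 8 in WT cells. Over all genes, 20.7% and 21.4% rose. Pomp, which chaperones the closing of the core, stood at 259.7, 291 and 251 RPM in activated KO and 275, 321 and 310.5 RPM in activated WT libraries, against 17.2, 12.8 and 18.9 RPM in resting KO and 26.7, 19.8 and 16.4 RPM in resting WT libraries. For Pomp the log2 change was 4.01 ± 0.26 in KO (limma, adjusted p = 2.58e-16) and 3.84 ± 0.26 in WT cells (adjusted p = 1.05e-15). Usp14 and Uchl5, deubiquitinases of the regulatory particle, rose by 2.53 ± 0.29 and 2.80 ± 0.32 in KO and by 2.67 ± 0.29 and 2.58 ± 0.32 in WT cells. The ligase Ube3c, named after its values were seen, fell in KO cells (−1.01 ± 0.37; limma, adjusted p = 0.0241) and was not called in WT cells (−0.50 ± 0.37). Its KO call was lost in 7 of 24 alternatives (TMM scaling, edgeR, DESeq2, and without KO activated 1 or 3 or KO resting 1 or 3).

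Of 9 genes of MHC class I presentation, which load the peptides the proteasome makes, 9 rose in KO and 8 in WT cells (all genes 20.7% and 21.4%). Calr, a chaperone of peptide loading, changed by 4.50 ± 0.33 in KO and 4.20 ± 0.33 in WT cells, and Tap1, a subunit of the peptide transporter, by 3.06 ± 0.35 and 3.00 ± 0.35. Tap2, its partner, had 1.05 ± 0.45 in WT cells (limma, adjusted p = 0.0542). The WT estimate passed in 10 of 24 alternatives, TMM scaling, edgeR and DESeq2 included, and the KO call was lost without KO resting 1 (limma, adjusted p = 0.0519). Of 11 genes of ubiquitin supply and shuttling, 11 rose in KO and 10 in WT cells (all genes 20.7% and 21.4%). Vcp, the segregase that extracts tagged proteins, changed by 4.09 ± 0.25 and 3.27 ± 0.25, and Uba1, the main ubiquitin-activating enzyme, by 2.82 ± 0.23 and 3.07 ± 0.23.

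Of 6 regulators of proteasome genes, 3 rose in both genotypes, against 20.7% of all genes in KO and 21.4% in WT cells. Irf1, which carries interferon signals to Psmb8, Psmb9 and Psmb10, changed by 3.48 ± 0.32 in KO and by 3.31 ± 0.32 in WT cells. Nlrc5, a transactivator of MHC class I genes, changed by 2.36 ± 0.66 and 2.56 ± 0.66. Its WT estimate was 1.45 without WT resting 3, and its KO call was lost with a pseudocount of 0.1 (limma, adjusted p = 0.0722). Ddi2, the protease that frees NFE2L1, changed by 1.95 ± 0.34 and 1.77 ± 0.34. Nfe2l1 itself, named after its values were seen, had 0.72 ± 0.48 (limma, adjusted p = 0.210) and 0.90 ± 0.48 (adjusted p = 0.121). Nfe2l2 (0.91 ± 0.41 and 0.81 ± 0.41) and Ngly1 (−0.61 ± 0.39 and −0.49 ± 0.39) were not called either. Nfe2l2 did pass in 7 of 24 alternatives in KO and 3 of 24 in WT cells, with TMM scaling and edgeR among them in both, Nfe2l1 in 2 and 3, and Ngly1 in 1 each. CD4 T cell markers rose in 8 of 8 cases in both genotypes, with medians of 1.41 in KO and 1.91 in WT cells.

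Loss of Acly was next compared in activated cells. No member passed the test between activated KO and WT cells, where 0% of all genes were called higher and 0.00639% lower (limma), and 2 members had an unadjusted p under 0.05, against 3.47% of all genes. Estimates were below 0 for 43 of 50 members, against 54.6% of all genes tested, with a median of −0.22, against −0.05. All 9 base genes, all 8 lid genes and all 4 structural beta genes were below 0, with medians of −0.23, −0.31 and −0.14. For 17 members every KO library lay below every WT library (7.38% of all genes), and Psmg4 was the only one that lay above (3.56%). With TMM scaling 37 members were below 0 (median −0.12, all genes 0), with edgeR 37 and with DESeq2 38, each with 0 members called.

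Psmb8, at the values given above, had a log2 change of −0.55 ± 0.27 in activated KO against WT cells (limma, adjusted p = 1.00). Psme3 had −0.50 ± 0.28 and Psmb5 −0.46 ± 0.37 (limma, both adjusted p = 1.00). For all 3 genes the 3 KO libraries lay below the 3 WT ones. Psmb9 stood the other way, at 0.24 ± 0.39, with overlap. Beside these values, the CD4 T cell markers summed to 1547 to 1623 RPM in activated KO and 2078 to 2384 RPM in activated WT libraries. All 8 markers had estimates below 0, and Thy1 was called (−1.28 ± 0.23; limma, adjusted p = 0.0332). The part of this in the members' estimates was not tested. Of the related genes none was called, with 1 proteasome-associated gene at an unadjusted p under 0.05. The smallest estimate among the proteasome-associated ones was −1.11, for Akirin2, a factor of nuclear import of proteasomes.

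**Figure D5:**
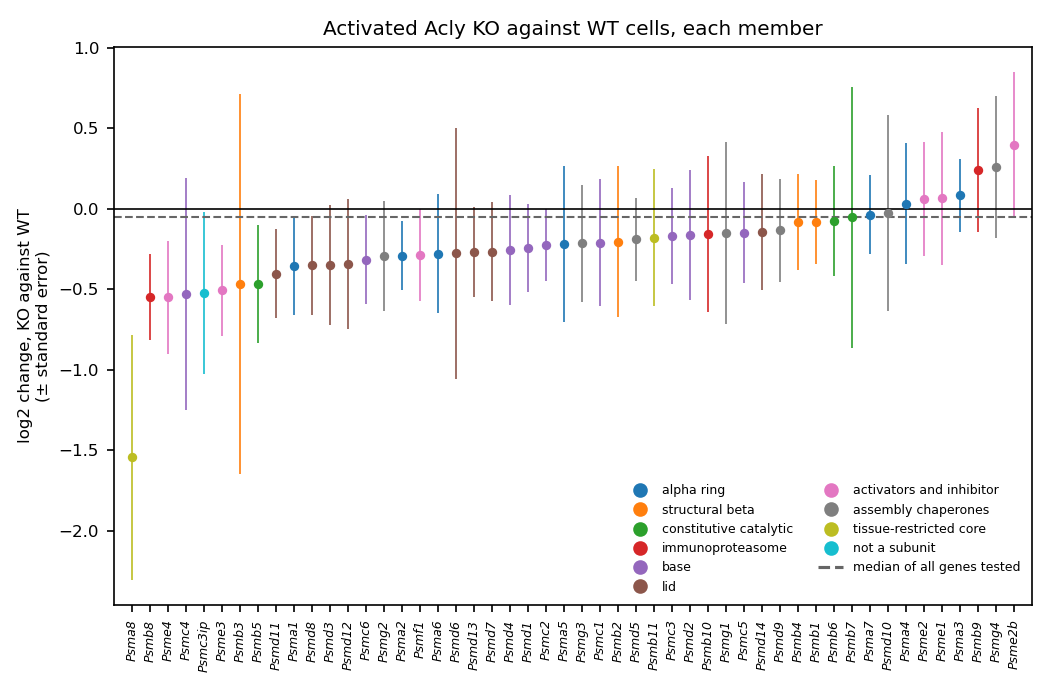
Log2 change of each member in activated Acly KO against WT cells (vertical axis, points with standard errors), coloured by role, with a dashed line at the median of all genes tested (−0.05). Of the 50 points 43 lie below 0, and no member was called.

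In resting cells of the Acly cohort no member was called between KO and WT (0% of all genes in either direction), with 8 of 50 at an unadjusted p under 0.05, against 5.57% of all genes. Estimates were below 0 for 29 of 50 members, against 47.8% of all genes, with a median of −0.09, against 0.02. KO libraries lay above WT ones for 3 members (3.33% of all genes) and below for 2 (3.74%). The smallest p belonged to Psmd13, with 12.6, 10.7 and 7.57 RPM in KO and 23.2, 31.1 and 13.4 RPM in WT libraries and a log2 change of −1.05 ± 0.28 (limma, adjusted p = 0.421). Without WT resting 3, Psmd13 (−1.38, adjusted p = 0.00916, limma) and the ATPase Psmc5 (−1.39, adjusted p = 0.0167) passed the test, and without KO resting 1 or KO resting 3 a single member did. The shares of all genes called in these fits with a library left out are not given here, so the calls do not set members apart from other genes. edgeR and DESeq2 called 0 members in this comparison.

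A difference between genotypes in the response to activation was not detected in these libraries. The interaction was called for no member (0% of all genes in either direction, limma), while 3 of 50 members and 4.19% of all genes had an unadjusted p under 0.05. The median was −0.10 over members and −0.09 over all genes. The 3 were Psmb9 (1.29 ± 0.55), Psmd8 (−1.04 ± 0.43) and Psmd12 (−1.20 ± 0.57). For Psmb9 the KO against WT estimate was 0.24 ± 0.39 after activation and −1.04 ± 0.39 at rest, where KO libraries held 2 to 5 reads. edgeR and DESeq2 called 0 members as well.

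In the Pdha1 cohort, no member was called in any comparison with all 12 libraries (0% of all 30357 genes tested, limma). Psmb5 stood at 131, 103 and 66.1 RPM in activated KO and 319.7, 122 and 8.57 RPM in activated WT libraries, against 16.1, 3.38 and 124 RPM in resting KO and 6.10, 2.09 and 18.1 RPM in resting WT libraries. Psmb8 stood at 134, 119 and 70.9 RPM in activated KO and 301, 123 and 27.9 RPM in activated WT libraries, against 29.4, 8.44 and 137 RPM in resting KO and 18.3, 9.41 and 36.2 RPM in resting WT libraries. Psme3 stood at 154, 165 and 130.1 RPM in activated KO and 296, 283 and 12.9 RPM in activated WT libraries, against 12.5, 1.69 and 216 RPM in resting KO and 15.6, 2.09 and 31.7 RPM in resting WT libraries. In each, KO resting 3 was as high as activated libraries, and WT activated 3 was as low as resting ones. Psma2 again varied little, at 188, 218 and 212 RPM in activated KO and 217, 196 and 204 RPM in activated WT libraries, against 212, 205 and 205 RPM in resting KO and 249.97, 254 and 240.2 RPM in resting WT libraries.

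The activation estimates of that cohort had medians over members of 1.5 in KO and 2.24 in WT cells, with 47 and 46 of 50 above 0. An unadjusted p under 0.05 was reached by 1 member in KO and 20 members in WT cells, against 2.88% and 14.2% of all genes. In KO cells 1 member had activated libraries all above resting ones (3.47% of all genes), and in WT cells 10 did (5.87%). Activated libraries all lay below resting ones for 0 members in KO (4.54%) and for Psma2 alone in WT cells (10.3%). edgeR called 0 members, and DESeq2 called 33 in WT cells (6.26% of all genes) and 0 lower (0.0725%).

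Without KO resting 3 and WT activated 3, most members rose in this cohort too. In KO cells 36 were called higher (6.7% of all genes) with a median of 2.45, and in WT cells 44 were called higher (14.1%) and Psmb11 lower (11.3%) with a median of 3.49. Psmb8 then changed by 2.68 ± 0.61 in KO (limma, adjusted p = 0.0155) and 3.34 ± 0.61 in WT cells (adjusted p = 0.00176), and Psmb5 by 3.59 ± 0.87 (adjusted p = 0.0403) and 4.86 ± 0.87 (adjusted p = 0.00459). Leaving out WT activated 1 as well, whose receptor RPM stood apart from WT activated 2, left 32 members called higher in KO (7.8%) and 31 in WT cells (7.06%), the single activated WT library being assumed to vary like the other groups. The libraries were left out for values that separate the states, so these calls describe the libraries kept. Of the resting libraries kept, KO resting 1 and 2 had 7 and 27 members at or under 3 reads. In WT resting 1, 2 and 3 there were 9, 25 and 5. Without WT activated 3 alone, 31 members were called higher in WT cells (9.05%) and 0 lower (4.98%).

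Between Pdha1 genotypes, the median estimate over members was 0.13 in activated cells (all genes 0.26) and 0.84 in resting cells, with no member called. With all libraries, KO lay wholly above WT for 0 members in activated (3.99%) and 1 in resting cells (3.89%), and below for 1 (1.74%) and 1 (3.57%). Leaving out the 2 libraries turned these to −0.85 (all genes 0.36; 48 of 50 below 0) and −0.11 (22 of 50 above 0), again with no member called. Leaving out 3, the activated median was −0.50 (all genes −0.05; 45 below 0). The direction of the estimates between Pdha1 genotypes therefore depended on the libraries kept. In the library sums, activated KO libraries lay at 3283, 3004 and 2327 RPM and activated WT libraries at 6618, 3954 and 913 RPM, so that the KO range sat inside that of WT. The interaction was called for no member (0% of all genes). In these comparisons of genotypes 0 members had an unadjusted p under 0.05 with all libraries, and edgeR and DESeq2 called 0.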

How the data were processed

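Total RNA of mouse CD4 T cells was sequenced in 24 libraries, per the labels' protocols after removal of ribosomal and globin RNA with a stranded TruSeq kit, in single-end reads of 75 bp. The authors deposited a table of 46981 gene identifiers in RPM, each library scaled to 1000000. GRCm38 and mm10 are the builds in the submitters' processing notes. No source used here gives the aligner, counter or annotation. Every RPM value came out as a whole read count, within 0.01, after inverting a collision correction for 4096 identifiers of 6 bases. The labels' protocols name no such identifiers, and no recovered count of a gene exceeded 4095, so these counts may be distinct identifiers and not reads, and the library type was not settled. Symbols and positions came from GENCODE M21, which named 46146 identifiers.

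Each cohort was fitted by itself (12 libraries, 4 groups sharing an estimate of the spread) with limma 3.58.1 in R 4.3.3 (trend and robust) on log2(RPM + 0.5), which understates changes of low genes. The filter required 1 RPM or more in 3 or more libraries, which kept 31311 genes for Acly and 30357 for Pdha1, and p-values were adjusted by Benjamini-Hochberg over all of them, with 0.05 as the threshold. Values after ± are standard errors. Alternatives were, with recovered reads, DESeq2 1.42.0 and edgeR 4.0.16, and other pseudocounts, filters and scalings, and left-out libraries. limma, edgeR and DESeq2 were each run on simulated data.

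Any member could be named. Values per library are given for the catalytic subunits, the activators and the members of each class with the highest mean or smallest p, and up to 4 called genes of each related list are named. Members, lists and tests were chosen with earlier results of these data known. Some genes of the related and marker lists are not reported here and were left out of the counts and sums.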

Additional observations from a re-analysis of the deposited data

How the results depend on the processing

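In the Acly cohort 42 members in KO and 40 in WT cells were called higher on activation in each of the 25 settings tried. Over all genes, 20.7% rose in KO and 21.4% in WT cells as reported. With no filter, 6342 and 6555 of 42809 genes rose. Counts of members that fell were less stable. As reported, 26.7% of all genes fell in KO and 23.8% in WT cells. Shares of all genes in the other Acly settings below are mostly not given, so those counts describe members alone. In WT cells 4 fell with quantile normalization, 2 with protein-coding scaling and 1 to 2 with a library left out. In KO cells 1 fell with TMM scaling, edgeR or DESeq2, 5 with protein-coding scaling and 1 to 3 with a library left out. Between resting KO and WT cells 1 fell with no filter (11 of 42809 genes tested) and 0 to 2 with a library left out. In the Pdha1 cohort the count of members called higher on activation was 44 in WT and 36 in KO cells without 2 libraries, 31 and 32 without 3, 33 in WT cells with DESeq2, and 0 to 31 in WT cells with a library left out. The count called lower in WT cells was 1 without 2 libraries. Estimates near 0 changed sign with the scaling. Psma2 had −0.83 (quantile), −0.49 (protein-coding) and −0.0794 to 0.15 (a library left out) in WT cells, and 0.0114 (TMM), 0.0531 (edgeR) and 0.0518 (DESeq2) in KO cells. Psmc2 had −0.66 and −0.33 (quantile and protein-coding) in WT cells, and 0.37 (TMM), 0.38 (edgeR), 0.38 (DESeq2) and −0.29 to 0.0406 (a library left out) in KO cells. Psme4 had −0.17 (protein-coding) in KO cells, and edgeR gave 0.0014 for Psmd9 and 0.0742 for Ube3c in WT cells. The median over all genes in WT cells was −0.61 as reported, −0.29 with TMM and −0.95 with protein-coding scaling, and the cause of each change was not tested. After removal of group means, same-numbered libraries of different groups correlated weakly and always above 0 in the Acly cohort (r of 0.03 to 0.20). In the Pdha1 cohort r ran from −0.78 to 0.45. In each cohort 4 of 18 such pairs were above 0.1. Whether replicate numbers mark a shared batch was not tested. With the replicate block, members called were 45 higher and 1 lower in WT and 44 and 3 in KO cells of the Acly cohort, and 0 in every other comparison. Fitting only the groups compared could not be done for the interaction. Depth limits resting values, where 1 read is worth up to 1.69 RPM (Pdha1 cohort, KO resting 2).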
